A study of Drosophila melanogaster with 46 samples.

Results

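Arc1 and Arc2 are neighbouring genes of Drosophila melanogaster on chromosome arm 2R whose proteins resemble the capsid protein of a retrotransposon. They were matched by gene symbol to the array's probe annotation, and only probe sets naming 1 gene were kept. The 2 genes are read by 3 of the 18952 probe sets of the array, which together cover 11981 named genes. Probe sets 1639180_at and 1639694_s_at name Arc1, and probe set 1632639_at names Arc2. The pair was chosen on the age difference of Arc1, whose values were higher in old flies of both lines, so the differences between ages are described here without a test.

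Arc proteins descend from the Gag protein of Ty3/gypsy retrotransposons, which packages the RNA of the element into a capsid. In flies Arc1 protein assembles capsid-like particles that carry Arc1 mRNA in extracellular vesicles from motor neurons to muscle at the neuromuscular junction. Arc1 is also known for roles in the brain, where it was linked to behaviour under starvation and to energy metabolism, while less is known about Arc2, whose protein can likewise form capsids.

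Whole virgin females were pooled by 5 and each pool was read on an Affymetrix array. The SR line had been selected for resistance to starvation and lives long, while the C line was its control, and no transgene or drug entered either, as far as the labels say. Flies of both lines were kept on malnutrition (yeast and sugar at a relative concentration of 0.5), optimal food (2) or overfeeding (5). They were collected in old age, when 10% of the cohort was alive, or in middle age, when 90% was alive. There were 12 groups of line, diet and age, 10 of them with 4 arrays, and the groups of old C flies on the poorest and the richest food had 3. Because survival defined both age classes, flies of the same class from different lines or diets were not necessarily equally many days old. P-values measure the spread between pools of 1 SR line and 1 C line.

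Values are log2 RMA values, so a difference of 1 is a doubling. They carry no read depth, and the number of arrays limits their precision. Array medians lay between 5.04 and 5.27, and arrays of a group correlated over probe sets at r = 0.974 to 0.998. Means of the marker genes fixed for each cell type were above 5 on every array for neurons (5.51 to 7.40), muscle (8.22 to 10.71), germline (9.36 to 10.16) and gut (7.68 to 10.98), and spanned 4.79 to 12.44 for follicle cells, which surround the egg. In whole flies, fewer cells of a type cannot be told apart from less RNA per cell.

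The first Arc1 probe set, 1639180_at, ranged from 10.07 to 13.57 over the 46 arrays, and was called dim (a mean under 5) in no group. Old C flies on malnutrition had the highest mean (13.55 ± 0.02, SD, n = 3) and middle-aged C flies on overfeeding the lowest (10.46 ± 0.32, SD, n = 4). The order of the groups fell into steps. Below the old C flies on malnutrition came 6 groups with means between 12.61 and 12.94 that did not differ from their neighbours beyond the larger SD, namely the other groups on malnutrition, old flies of both lines on optimal food and old SR flies on overfeeding. Old C flies on overfeeding (11.74 ± 0.22, SD, n = 3) and middle-aged SR flies on optimal food (11.71 ± 0.21, SD, n = 4) followed, then middle-aged SR flies on overfeeding (11.03 ± 0.39, SD, n = 4). At the bottom, middle-aged C flies on optimal food (10.47 ± 0.14, SD, n = 4) and on overfeeding did not differ beyond their spread.

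The other probe sets ordered the groups much alike. Arc2 ranged from 6.32 to 8.69, with the 4 groups on malnutrition at the top (8.45 ± 0.41 in old C flies, SD, n = 3, to 7.81 ± 0.28 in middle-aged C flies, SD, n = 4) and the bottom held by middle-aged C flies kept on optimal food (6.54 ± 0.17, SD, n = 4). Along this order only 2 of 11 neighbouring groups differed beyond the larger SD, old C flies from middle-aged SR flies on optimal food (by 0.50) and old from middle-aged C flies on overfeeding (by 0.33). The second Arc1 probe set ranged from 7.53 to 11.59, with old SR flies on optimal food highest (11.17 ± 0.26, SD, n = 4) and the same group as for Arc2 lowest (8.16 ± 0.31, SD, n = 4). Its SD within groups reached 0.93. Of its 11 neighbouring pairs 1 differed beyond its own larger SD, middle-aged SR from middle-aged C flies on overfeeding (by 0.79, against 0.65).

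**Figure D1:**
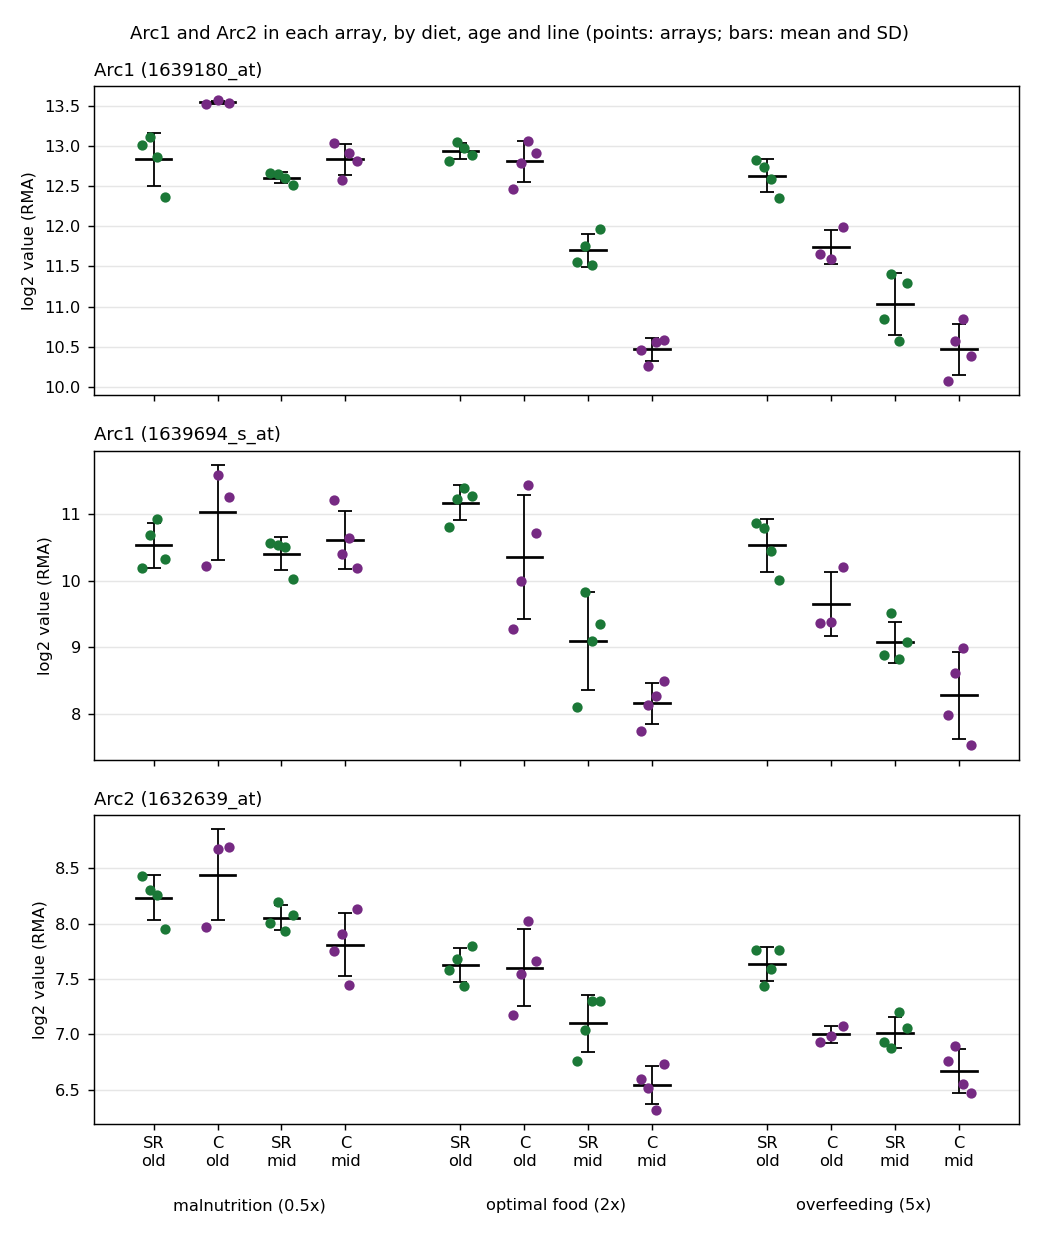
Log2 RMA value of each Arc1 and Arc2 probe set (vertical axes) in every array, by diet, age and line (horizontal axis, green points SR, purple points C, bars mean and SD of 3 or 4 arrays). Middle-aged C flies on optimal food and overfeeding lie lowest for Arc1 at 10.07 to 10.84 (1639180_at), and old C flies on malnutrition highest at 13.53 to 13.57.

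Age, the difference for which the gene was picked, was as follows for Arc1 on malnutrition. Old SR flies had 13.01, 13.11, 12.86 and 12.37, against 12.67, 12.65, 12.60 and 12.51 in middle-aged SR flies. Old C flies had 13.53, 13.57 and 13.54, against 13.04, 12.58, 12.91 and 12.81 in middle-aged C flies. The ages overlapped in SR flies, where replicate 4 of the old group lay below all middle-aged arrays, and did not overlap in C flies. On optimal food, old SR flies had 12.82, 13.05, 12.98 and 12.89, against 11.56, 11.76, 11.52 and 11.97 in middle-aged SR flies. In C flies the old group had 12.47, 12.79, 13.07 and 12.91, against 10.46, 10.26, 10.56 and 10.58 in middle-aged C flies. By this probe set old flies of both lines reached about the same values on this food, and the wider gap in C flies lay with the low middle-aged arrays. By 1639694_s_at the old groups there averaged 11.17 ± 0.26 in SR flies and 10.35 ± 0.93 in C flies (SD, n = 4 each). On overfeeding, old SR flies had 12.83, 12.74, 12.59 and 12.36, against 10.85, 11.41, 10.57 and 11.29 in middle-aged SR flies. The old C arrays read 11.65, 11.59 and 11.99, against 10.07, 10.57, 10.84 and 10.38 in middle-aged C flies. Every old array exceeded every middle-aged one in both lines on this food.

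In log2 differences, old minus middle-aged, Arc1 (1639180_at) stood at 0.23 ± 0.16 (SE) in SR flies and 0.71 ± 0.17 in C flies on malnutrition, 1.23 ± 0.16 in SR flies and 2.35 ± 0.16 in C flies on optimal food, and 1.60 ± 0.16 in SR flies and 1.28 ± 0.17 in C flies on overfeeding. The values of the ages did not overlap in 5 of the 6 classes of line and diet for this probe set, and in 4 of 6 each for 1639694_s_at and for Arc2. Over all probe sets, 2.71% to 9.89% had all old arrays above all middle-aged ones, depending on the class (SR flies on malnutrition 3.1%, on optimal food 2.71%, on overfeeding 4.14%, C flies on malnutrition 3.09%, on optimal food 9.89%, on overfeeding 8.45%). Nothing is read from these counts, since Arc1 was picked for its age difference. In SR flies on malnutrition the difference turned to -0.06 when arrays were centred on the mean of neuron markers. The second Arc1 probe set, 1639694_s_at, showed differences of 0.12 ± 0.35 (SE) in SR flies and 0.41 ± 0.38 in C flies on malnutrition, 2.08 ± 0.35 and 2.20 ± 0.35 on optimal food, and 1.46 ± 0.35 and 1.36 ± 0.38 on overfeeding, SR flies first in each pair. Its value in SR flies on malnutrition turned to -0.16 with that centring, to -0.04 with germline markers as a covariate, and to -0.01 without replicate 3 of the old group.

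For Arc2 the ages compared as follows. On malnutrition, old SR flies had 8.43, 8.30, 8.26 and 7.95, against 8.01, 8.20, 7.93 and 8.08 in middle-aged SR flies. Old C flies had 7.97, 8.67 and 8.69, against 7.75, 7.91, 7.45 and 8.13 in middle-aged C flies. The ages overlapped in both lines, in C flies through replicate 1 of the old group, without which the difference was 0.87 in place of 0.64 ± 0.17 (SE). On optimal food, old SR flies had 7.58, 7.68, 7.44 and 7.80, against 6.76, 7.04, 7.30 and 7.30 in middle-aged SR flies. In C flies the old group had 7.18, 7.55, 8.02 and 7.66, against 6.60, 6.52, 6.32 and 6.73 in middle-aged C flies. Here the ages did not overlap in either line, and again middle-aged C flies lay lowest. On overfeeding, old SR flies had 7.76, 7.44, 7.59 and 7.76, against 6.93, 6.88, 7.20 and 7.06 in middle-aged SR flies. The old C arrays read 6.93, 6.99 and 7.08, against 6.76, 6.90, 6.55 and 6.47 in middle-aged C flies. Neither line overlapped there, in C flies by a narrow margin. The differences were 0.18 ± 0.15 (SE) in SR flies on malnutrition, 0.52 ± 0.15 in SR flies and 1.06 ± 0.15 in C flies on optimal food, and 0.62 ± 0.15 in SR flies and 0.33 ± 0.17 in C flies on overfeeding, and they turned to -0.11 in SR flies on malnutrition and to -0.01 in C flies on overfeeding when arrays were centred on the neuron markers.

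**Figure D2:**
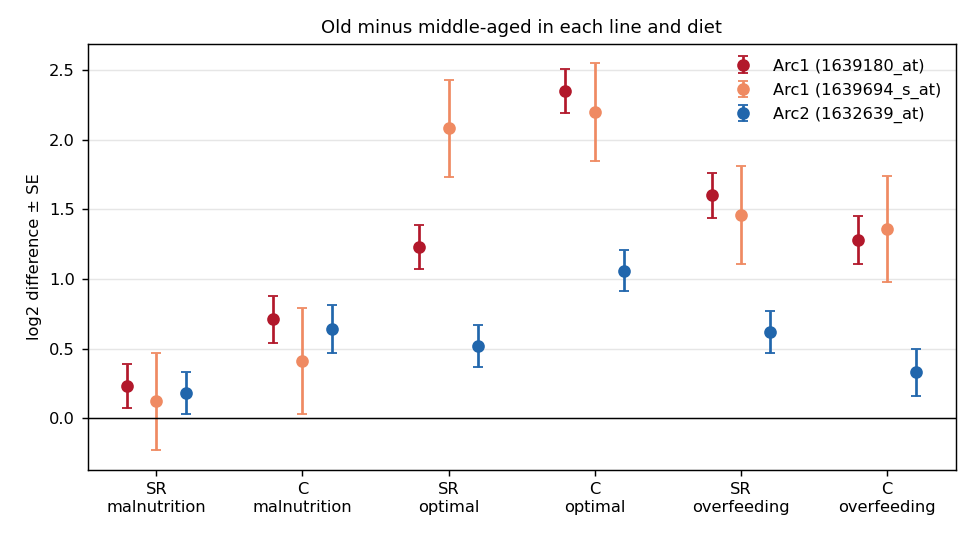
Log2 difference of old minus middle-aged flies with its SE (vertical axis) in each line and diet (horizontal axis) for the 3 Arc probe sets, given as a description. The differences of Arc1 run from 0.12 in SR flies on malnutrition to 2.35 in C flies on optimal food, and those of Arc2 from 0.18 to 1.06; with arrays centred on neuron markers those of SR flies on malnutrition fall below 0 for all 3 probe sets, as does that of Arc2 in C flies on overfeeding.

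Diet was not used in picking the genes, and was tested. Malnutrition raised Arc1 in 3 of the 4 classes of line and age and Arc2 in all 4, relative to optimal food and on the deposited scale, while centring arrays on neuron markers turned the differences in old C flies, and that of Arc2 in old SR flies, below 0. In middle-aged C flies Arc1 (1639180_at) averaged 12.83 ± 0.19 on malnutrition and 10.47 ± 0.14 on optimal food (SD, n = 4 each), a 5.16-fold difference (log2 2.37 ± 0.16, SE, limma, adjusted p = 2.84e-13). This difference ranked 18 from the highest of the 18952 probe sets, 9.03% of which were called higher. In middle-aged SR flies it averaged 12.61 ± 0.07 on malnutrition and 11.71 ± 0.21 on optimal food (SD, n = 4 each, log2 0.90 ± 0.16, SE, limma, adjusted p = 0.000137), where 7.36% of probe sets were called higher. None of the arrays of both diets overlapped in middle age in either line. Overlap was not counted over all probe sets for diets or lines, so it only describes the arrays in those comparisons. Arrays of both ages also enter the age differences for which Arc1 was picked. The middle-aged comparisons share the low values on optimal food with that choice.

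In old flies Arc1 was called in C flies and not in SR flies. It averaged 13.55 ± 0.02 (SD, n = 3) on malnutrition and 12.81 ± 0.26 (SD, n = 4) on optimal food in old C flies, which was called higher with no overlap (log2 0.74 ± 0.17, SE, limma, adjusted p = 0.00195), beside 9.52% of all probe sets. Old SR flies had 12.84 ± 0.33 on malnutrition and 12.94 ± 0.10 on optimal food (SD, n = 4 each), with overlapping arrays (log2 -0.10 ± 0.16, SE, limma, adjusted p = 0.77). Over all lines and ages Arc1 was 1.97-fold higher on malnutrition (log2 0.98 ± 0.08, SE, limma, adjusted p = 1.71e-12). The second Arc1 probe set was called higher in middle-aged flies of both lines, by 2.45 ± 0.35 (SE) in C flies and 1.32 ± 0.35 in SR flies, and was not called in old C flies (0.67 ± 0.38) or old SR flies (-0.64 ± 0.35). Its call in middle-aged SR flies was lost without replicate 1 of these flies on optimal food (0.99 ± 0.36, SE, limma, adjusted p = 0.0763), an array at 8.10 beside 9.83, 9.10 and 9.35.

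Arc2 averaged 7.81 ± 0.28 on malnutrition and 6.54 ± 0.17 on optimal food in middle-aged C flies (SD, n = 4 each), a 2.41-fold difference (log2 1.27 ± 0.15, SE, limma, adjusted p = 1.59e-07). In middle-aged SR flies it averaged 8.06 ± 0.12 on malnutrition and 7.10 ± 0.26 on optimal food (SD, n = 4 each, log2 0.96 ± 0.15, SE, limma, adjusted p = 3.23e-05). The diets did not overlap in these classes, nor in old SR flies, with 8.23 ± 0.20 on malnutrition and 7.62 ± 0.15 on optimal food (SD, n = 4 each, log2 0.61 ± 0.15, SE, limma, adjusted p = 0.00353), where 8.24% of probe sets were called higher and Arc1 was not. Old C flies had 8.45 ± 0.41 (SD, n = 3) on malnutrition and 7.60 ± 0.34 (SD, n = 4) on optimal food, which overlapped through replicate 1 on malnutrition and replicate 3 on optimal food (log2 0.85 ± 0.17, SE, limma, adjusted p = 0.000228). That call was lost when the spread was estimated from these arrays alone (limma, adjusted p = 0.0656). Over all lines and ages Arc2 was 1.89-fold higher (log2 0.92 ± 0.08, SE, limma, adjusted p = 2.62e-12), beside 18.2% of all probe sets called higher.

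Marker genes of cell types moved on malnutrition too. Over all lines and ages, 8 of 8 measured neuron markers were called higher, among them Snap25, a protein of synaptic vesicle fusion (1.16 ± 0.11, SE), and elav, an RNA-binding protein of neurons (1.22 ± 0.21), and the mean of the list was higher by 0.85. The separate list of 10 neurosecretory markers was mixed, with 5 called higher and 3 lower, and its mean was higher by only 0.33. Of 9 muscle markers 8 were called higher (list mean 0.68), while all 10 gut markers (-1.52), 5 of 8 fat body markers (-0.84), 7 of 9 follicle cell markers (-2.48) and 4 of 8 haemocyte markers (-0.50) were called lower, beside 13.5% of all probe sets. Germline markers were called in both directions, 2 higher and 3 lower of 10 (-0.08). The part of these shifts in the Arc differences was not tested, and arrays were not centred on the neurosecretory list.

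Set against the neuron markers, the Arc differences on malnutrition shrank, because that centring lowers every probe set by the 0.85 of the list. Arc1 then stood at 0.12 ± 0.09 over all lines and ages (SE, limma, adjusted p = 0.196, and 2.52e-13 at the lowest of 7 other settings) and Arc2 at 0.07 ± 0.09 (limma, adjusted p = 0.47, and 3.51e-13 at the lowest), neither called. Middle-aged C flies kept a call for Arc1 at 1.34 ± 0.18 (limma, adjusted p = 5.61e-08), whose value ran from 1.34 to 2.37 over the 7 other settings. Arc2 was not called there (0.24 ± 0.18, limma, adjusted p = 0.188), and in middle-aged SR flies Arc2 was still called (0.39 ± 0.18, limma, adjusted p = 0.0471) and Arc1 was not (0.33 ± 0.18, limma, adjusted p = 0.0955). In old flies the direction turned, to -0.12 for Arc1 and -0.01 for Arc2 in C flies and to -0.35 for Arc2 in SR flies, none of them called, while Arc1 in old SR flies was called lower at -1.06 ± 0.18 (limma, adjusted p = 2.29e-06). The second Arc1 probe set, called over all lines and ages at 0.95 ± 0.18 without this centring, fell to 0.10 ± 0.17 (limma, adjusted p = 0.576). It kept its calls in middle-aged C flies (1.43) and SR flies (0.75), and was called lower in old SR flies (-1.60 ± 0.34, limma, adjusted p = 3.69e-05). Centring arrays on their median moved no Arc difference on malnutrition past or below the threshold.

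**Figure D3:**
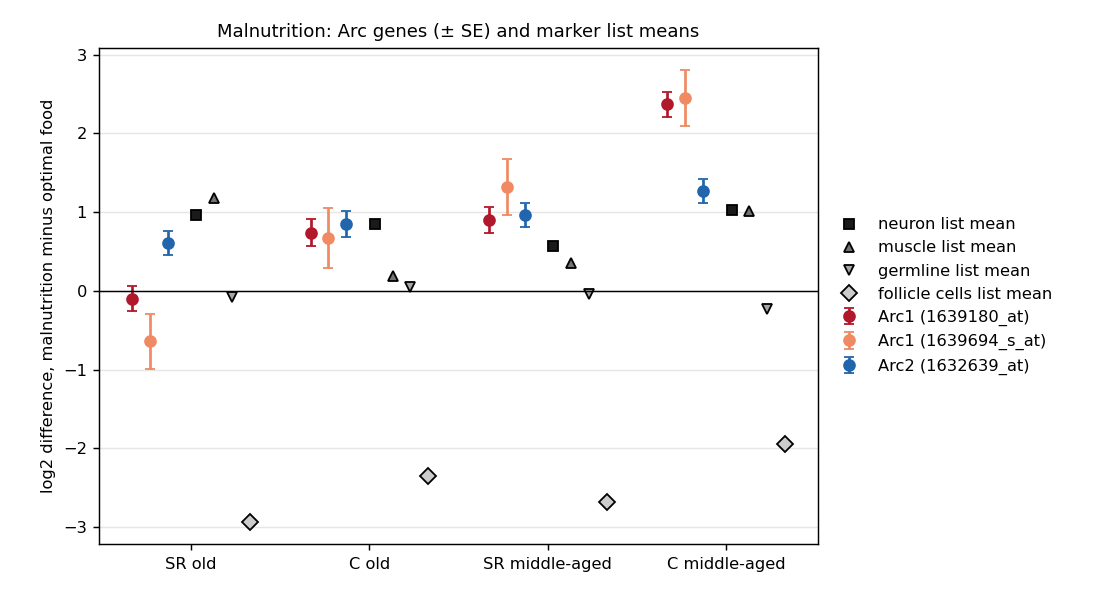
Log2 difference of malnutrition minus optimal food (vertical axis) in each class of line and age (horizontal axis) for the 3 Arc probe sets with SE, and for the means of 4 marker lists. Arc1 exceeds the neuron list mean in middle-aged C flies (2.37 against 1.03) and lies below it in old SR flies (-0.10 against 0.96).

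The malnutrition difference of Arc1 itself differed between lines. Averaged over both ages, it was lower in SR flies than in C flies by 1.15 ± 0.16 on the log2 scale (SE, limma, interaction, adjusted p = 7.59e-05), a direction in which 0.66% of all probe sets were called. The value lay between -1.20 and -1.07 without any one array, and between -1.15 and -0.98 over the other settings, including the neuron centring (limma, adjusted p at most 0.00357). This interaction uses arrays that also enter the age differences for which Arc1 was picked. The second Arc1 probe set had nearly the same size with a larger error (-1.22 ± 0.36, SE, limma, adjusted p = 0.103), and was called without replicate 1 of middle-aged SR flies on optimal food (-1.39), replicate 1 of old C flies on malnutrition (-1.42) or replicate 3 of old C flies on optimal food (-1.40). It was also called with germline markers as a covariate (-1.18, limma, adjusted p = 0.0411). Arc2 was not called (-0.27 ± 0.16, SE, limma, adjusted p = 0.542). None of the 8 neuron markers was called for this interaction, with a median of -0.16.

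Overfeeding lowered Arc1 in 2 of the 4 classes, in arrays that also enter the age differences for which Arc1 was picked. Old C flies had 11.74 ± 0.22 (SD, n = 3) on overfeeding and 12.81 ± 0.26 (SD, n = 4) on optimal food, without overlap (log2 -1.07 ± 0.17, SE, limma, adjusted p = 0.000431), where 0.744% of probe sets were called lower. Middle-aged SR flies had 11.03 ± 0.39 on overfeeding and 11.71 ± 0.21 on optimal food (SD, n = 4 each), also without overlap (log2 -0.68 ± 0.16, SE, limma, adjusted p = 0.0326), beside 0.902% called lower. The second call was lost without replicate 2 (-0.66) or 4 (-0.59) on optimal food and without replicate 1 (-0.61) or 3 (-0.52) on overfeeding, and with neuron centring (-0.32, limma, adjusted p = 0.13). With the spread taken from the arrays of the comparison alone neither call was kept (limma, adjusted p = 0.079 in old C flies and 0.146 in middle-aged SR flies). Middle-aged C flies, already lowest on optimal food, had 10.46 ± 0.32 on overfeeding and 10.47 ± 0.14 on optimal food (SD, n = 4 each, log2 -0.00 ± 0.16, SE, limma, adjusted p = 0.998), where 0.0106% of probe sets were called in either direction. Old SR flies were not called either (log2 -0.31 ± 0.16, SE, limma, adjusted p = 0.6, background 0.248%). The overfeeding difference did not pass a test between lines for any Arc probe set (0.04 for Arc1, -0.04 for 1639694_s_at and 0.20 for Arc2, limma, interaction, adjusted p = 1 each, background 0.0106%).

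Over all lines and ages Arc1 was 1.43-fold lower on overfeeding than on optimal food (log2 -0.51 ± 0.08, SE, limma, adjusted p = 0.000177), beside 8.18% of probe sets called lower. With neuron centring this value was -0.30 and still called (limma, adjusted p = 0.0102). Malnutrition and overfeeding share the arrays on optimal food. Arc2 was called in none of the 4 classes, at 0.01 ± 0.15 in old SR flies, -0.60 ± 0.17 in old C flies, -0.08 ± 0.15 in middle-aged SR flies and 0.13 ± 0.15 in middle-aged C flies (log2, SE). Old C flies came nearest, with 7.0 ± 0.08 (SD, n = 3) on overfeeding and 7.60 ± 0.34 (SD, n = 4) on optimal food without overlap (limma, adjusted p = 0.0683), and were called without replicate 1 on optimal food (-0.74, limma, adjusted p = 0.0147). The second Arc1 probe set was called in none of them either, its differences lying between -0.71 and 0.13. Muscle markers moved with Arc1 over all lines and ages, with 7 of 9 called lower and a list mean of -0.42, and 3 of 8 neuron markers were lower, with a list mean of -0.22, while 3 of 9 follicle cell markers were called higher, beside 8.11% of probe sets. The mean of the follicle list differed by 1.49 over all lines and ages, and by -1.71 in old SR flies, where none of its members was called. Their part in the result was not tested.

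**Figure D4:**
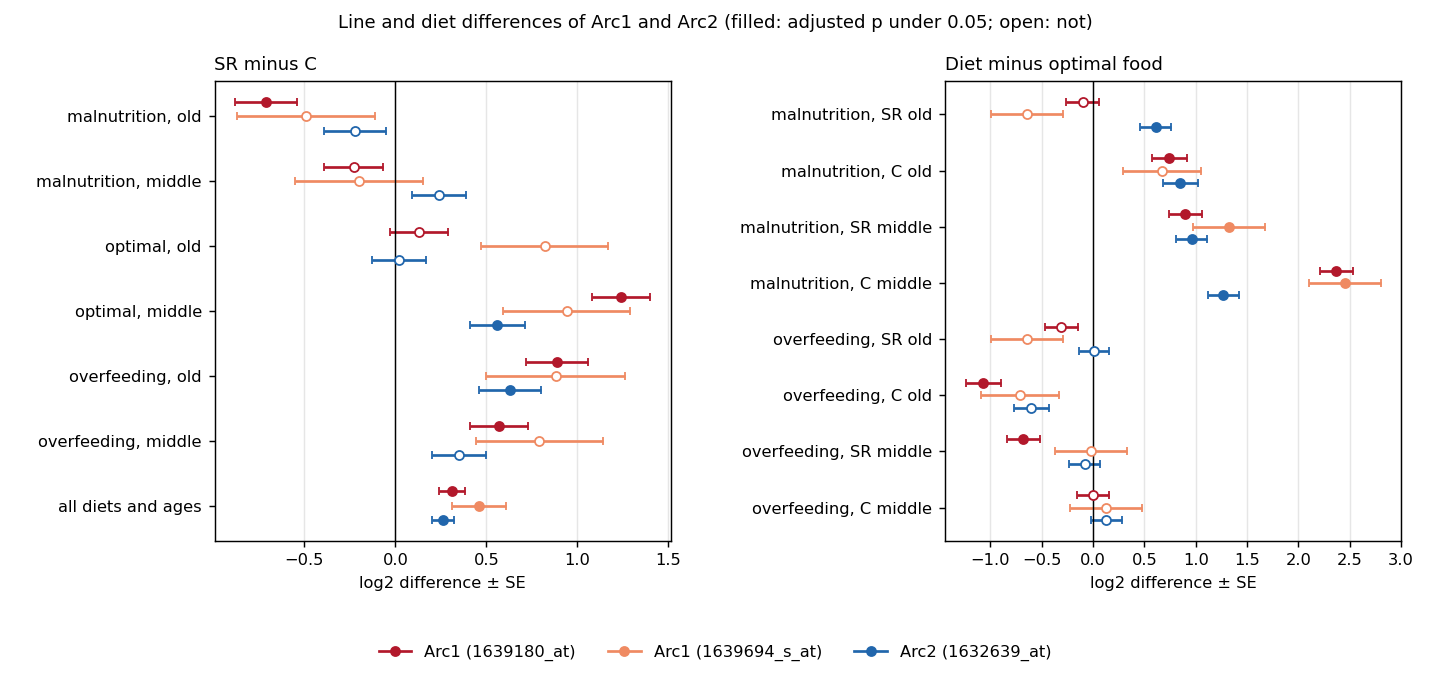
Log2 differences with SE (horizontal axes) of SR minus C flies in each diet and age, and of malnutrition or overfeeding minus optimal food in each line and age, for the 3 Arc probe sets; filled points have an adjusted p under 0.05. Arc1 (1639180_at) is lower in SR flies on malnutrition in old age (-0.71) and higher in middle age on optimal food (1.24); with arrays centred on neuron markers the malnutrition differences of old C flies, and of Arc2 in old SR flies, turn below 0.

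Between the lines, Arc1 was called higher in SR flies in 3 of 6 classes of diet and age and lower in 1. The arrays compared also enter the age differences for which Arc1 was picked, the low middle-aged C arrays on optimal food among them. Middle-aged flies on optimal food differed most, with 11.71 ± 0.21 in SR flies and 10.47 ± 0.14 in C flies (SD, n = 4 each, 2.36-fold, log2 1.24 ± 0.16, SE, limma, adjusted p = 1.23e-06), without overlap. In that class 8.48% of probe sets were called higher, and Arc1 ranked 123 from the highest. Old flies on overfeeding followed, with 12.63 ± 0.21 in SR flies (SD, n = 4) and 11.74 ± 0.22 in C flies (SD, n = 3), again without overlap (log2 0.89 ± 0.17, SE, limma, adjusted p = 0.00118, background 1.36% called higher). Middle-aged flies on overfeeding overlapped, with 11.03 ± 0.39 in SR flies and 10.46 ± 0.32 in C flies (SD, n = 4 each, log2 0.57 ± 0.16, SE, limma, adjusted p = 0.0331, background 2.66%). That last call was lost without replicate 2 (0.44) or 4 (0.48) of SR flies or replicate 1 (0.43), 2 (0.60) or 4 (0.54) of C flies, with the arrays of the comparison alone (limma, adjusted p = 0.191) and with neuron centring (0.36).

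In old flies on malnutrition the lines stood in the opposite order, a difference from the other diets that was not tested within old age. Old SR flies averaged 12.84 ± 0.33 (SD, n = 4) and old C flies 13.55 ± 0.02 (SD, n = 3), every SR array lying below every C array (log2 -0.71 ± 0.17, SE, limma, adjusted p = 0.0115), where 1.78% of probe sets were called lower. Replicate 4 of the SR flies, at 12.37, carried part of this: without it the difference was -0.55 (limma, adjusted p = 0.0745), and without replicate 2 of the C flies it was -0.70 (limma, adjusted p = 0.0508). With the arrays of the comparison alone it was not called (limma, adjusted p = 0.202). Middle-aged flies on malnutrition (log2 -0.23 ± 0.16, SE, background 3.41% called in either direction) and old flies on optimal food (0.13 ± 0.16, background 4.35%) were not called. Over all diets and ages Arc1 stood 1.24-fold higher in SR flies (log2 0.31 ± 0.07, SE, limma, adjusted p = 0.000503), beside 11.4% of probe sets.

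Arc2 was called higher in SR flies in 2 of 6 classes, both of them classes in which Arc1 was higher. In middle-aged flies on optimal food it averaged 7.10 ± 0.26 in SR flies and 6.54 ± 0.17 in C flies (SD, n = 4 each, log2 0.56 ± 0.15, SE, limma, adjusted p = 0.0112, background 8.48% called higher). In old flies on overfeeding it averaged 7.64 ± 0.16 in SR flies (SD, n = 4) and 7.0 ± 0.08 in C flies (SD, n = 3, log2 0.63 ± 0.17, SE, limma, adjusted p = 0.0265, background 1.36% called higher). The lines overlapped in neither. The first was lost without replicate 4 of SR flies (0.49) and with neuron centring (0.22). The second was lost without replicate 1 or 4 of SR flies (0.59 each), without replicate 1 (0.60), 2 (0.63) or 3 (0.67) of C flies, and with neuron centring (limma, adjusted p = 0.0938). Over all diets and ages Arc2 was 1.2-fold higher in SR flies (log2 0.26 ± 0.06, SE, limma, adjusted p = 0.00206), beside 11.4% of probe sets called higher. With neuron centring that value was 0.19 and not called.

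The second Arc1 probe set was called in none of the 6 classes between lines, at -0.49 and -0.20 on malnutrition, 0.82 and 0.94 on optimal food and 0.88 and 0.79 on overfeeding, old flies first in each pair, with SE of 0.35 to 0.38. In middle-aged flies on optimal food it was called without dim probe sets (0.94, limma, adjusted p = 0.0386), with the replicate number as a block (0.94, limma, adjusted p = 0.0376) and without replicate 1 of SR flies (1.27, limma, adjusted p = 0.0152). Over all diets and ages it was called higher in SR flies (0.46 ± 0.15, SE, limma, adjusted p = 0.0225), except without replicate 1 of old C flies on malnutrition (0.39, limma, adjusted p = 0.0546) and with neuron centring (0.39, limma, adjusted p = 0.0674). In middle-aged flies on optimal food the means of other marker lists moved with the lines: 5 of 8 haemocyte markers (blood cells, list mean 0.84), 5 of 7 Malpighian tubule markers (0.63), 3 of 8 neuron markers (0.34) and 2 of 9 muscle markers (0.50) were called higher in SR flies, against the 8.48% of all probe sets. Their part in the Arc differences was not tested. In old flies on malnutrition, where Arc1 was lower in SR flies, none of the 8 neuron, 9 muscle or 8 haemocyte markers was called, while 3 of 10 gut markers were lower (list mean -0.70) and 2 of 7 Malpighian tubule markers higher (0.35), beside 1.78% of probe sets called lower and 1.82% called higher.

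The 3 probe sets ran together over the groups. Over the 12 group means, Pearson's r was 0.973 between the Arc1 probe sets, 0.930 between Arc1 (1639180_at) and Arc2, and 0.890 between 1639694_s_at and Arc2, a description only, since the groups hold the age difference for which Arc1 was picked. Within groups, the deviations of the 46 arrays from their group means correlated between the Arc1 probe sets (r = 0.633, rho = 0.699, permutation within groups, adjusted p = 0.0012 and 0.0009 over 30 relations, r = 0.671 without the 2 farthest arrays). Between Arc1 (1639180_at) and Arc2 they did not pass (r = 0.161, rho = 0.117, permutation, adjusted p = 0.423 and 0.624, r = 0.157 without the 2 farthest). With the mean of germline markers, Arc1 gave r = -0.434 and rho = -0.474 (permutation, adjusted p = 0.107 and 0.0491, r = -0.450 without the 2 farthest), and Arc2 gave r = -0.537 and rho = -0.416 (permutation, adjusted p = 0.0724 and 0.108, r = -0.474). With haemocyte markers, Arc1 gave r = 0.469 and rho = 0.465 (permutation, adjusted p = 0.0724 and 0.0491, r = 0.373). No other relation with a marker list passed at an adjusted p under 0.05 by either measure.

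The genes whose group means followed Arc1 (1639180_at) most closely, among 2340 probe sets that span at least 1 log2 unit over the 12 groups, were vir-1 (r = 0.969), known as a gene induced by virus infection, AnxB9 (0.968), an annexin that binds membranes and calcium, Tsp42Ed (0.968), a tetraspanin, Tspo (0.962), the translocator protein of the outer mitochondrial membrane, and hdly (0.961). Most opposite were hts, the fly adducin (-0.891), CG17801 (-0.879) and Pxt (-0.854). For 1639694_s_at, AnxB9 (0.940) and Tsp42Ed (0.924) came up again, with Syp, an RNA-binding protein of synapses, first (0.955), then lft (0.936) and pot (0.930). On malnutrition in middle-aged C flies vir-1 was higher by 1.88 and Tsp42Ed by 1.11, beside 2.37 for Arc1.

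Arc2 had another set of followers: NK7.1, a homeobox factor (0.965), Irbp18, a leucine zipper factor (0.959), the long noncoding RNA CR32865 (0.957), dl, a transcription factor of the NF-kappaB family (0.955), and Neurochondrin (0.948). Its opposites were mag, a gut lipase (-0.919), CG8661 (-0.904) and hts (-0.901). On malnutrition, averaged over lines and ages, CR32865 was higher by 1.89 and Neurochondrin by 1.24, while mag was lower by 3.46 on the log2 scale. All 12 points share the arrays, and other probe sets of these genes were not considered.

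**Figure D5:**
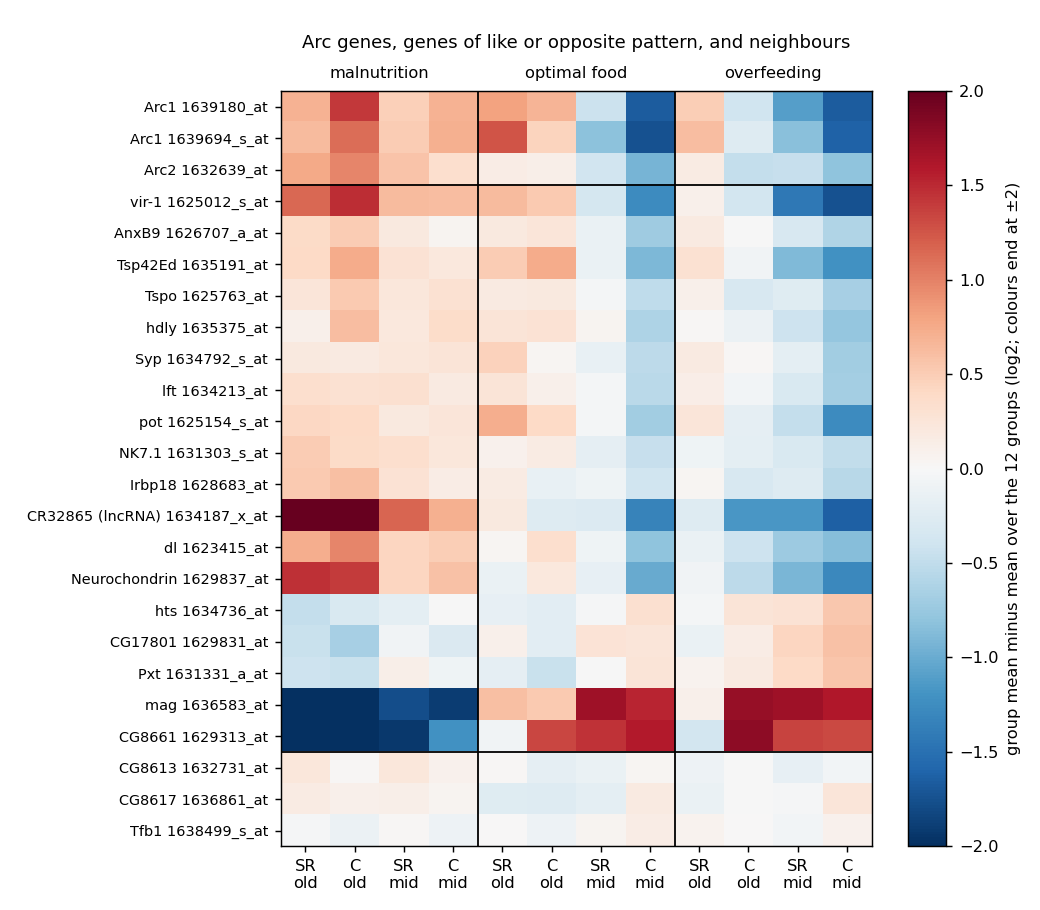
Group means of the Arc probe sets (top), of the genes most and least like them, and of 3 chromosomal neighbours (bottom), each as log2 difference from its mean over the 12 groups (colour) by diet, age and line (columns). CG8613, CG8617 and Tfb1, beside the Arc genes on the chromosome, stay pale. The Arc genes run from blue in middle-aged C flies on optimal food and overfeeding to red on malnutrition. Both Arc1 probe sets are also red in old flies on optimal food and in old SR flies on overfeeding.

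On the chromosome, RefSeq Release 6 places Shrm, CG8613 and CG8617 before Arc1, the pseudogene CR10102 between the Arc genes, and Tfb1, CG34184 and CG34442 after Arc2. CR10102 and CG34442 have no probe set under their name here, and probe set 1639694_s_at carries the suffix the maker gives to probes that fit several transcripts, so it may also read others. Malnutrition, over all lines and ages, raised CG8613 by 0.20 ± 0.04 (SE, limma, adjusted p = 1.58e-05) and CG8617 by 0.23 ± 0.06 (limma, adjusted p = 0.00167), both under the 0.85 of the neuron markers and well under the Arc genes. CG8617 was lower in SR flies in middle age on optimal food (-0.37 ± 0.12, SE, limma, adjusted p = 0.023), opposite to Arc1. The 3 probe sets of Shrm, Tfb1, a subunit of the general transcription factor TFIIH, and CG34184 were called in none of 5 comparisons examined. CG34184 (mean 3.66) and the Shrm probe sets with means of 4.36 and 3.53 were dim, so their lack of calls says little. The remaining Shrm probe set (mean 6.85) stood at -0.24 ± 0.09 on overfeeding over all lines and ages (SE, limma, adjusted p = 0.0549). On malnutrition in middle-aged C flies it stood at 0.46 ± 0.18 (limma, adjusted p = 0.0767), and Tfb1 at -0.24 ± 0.09 (limma, adjusted p = 0.0802).

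Of the other genes with a retroelement origin, Iris and Gagr were called higher in SR flies over all diets and ages, as both Arc genes were, beside 11.4% of all probe sets. Iris, which derives from a retroviral envelope gene, was lower on malnutrition over all lines and ages (-1.47 ± 0.13, SE, limma, adjusted p = 5.94e-12) and higher in SR flies (0.46 ± 0.11, limma, adjusted p = 0.00136). Gagr, which like Arc1 derives from a gag gene, was higher in SR flies (0.43 ± 0.09, limma, adjusted p = 0.00024) and lower on overfeeding (-0.67 ± 0.11, limma, adjusted p = 0.000175), as was Arc1. Unlike the Arc genes, Gagr was not called on malnutrition, and neither Iris nor Arc2 was called on overfeeding. Over all lines and ages, 13.5% of probe sets were called lower on malnutrition and 8.18% on overfeeding.

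Gene groups around the known roles of Arc1 were counted over all lines and ages. On malnutrition the median difference over all probe sets was -0.002. Changes under 0.85 lay below the shift of the neuron markers, which was not examined as a baseline for these groups. Of 21 measured genes of the ESCRT machinery and vesicle release 13 were called higher on malnutrition and 1 lower, with a median of 0.18, among them shrb (0.45 ± 0.06, SE) and CHMP2B (0.38 ± 0.04), subunits of ESCRT-III that cut vesicles off membranes. On overfeeding 1 was higher and 5 were lower, beside 8.11% and 8.18% of all probe sets. Of 15 genes of the neuromuscular junction 8 were higher on malnutrition and 1 lower (median 0.24), with Nlg2 (1.16 ± 0.11, a dim probe set) and Nrx-1 (0.69 ± 0.09), adhesion proteins of synapses. Of 14 genes of mRNA transport and local translation 3 were higher and 1 lower (median 0.07), with orb2, a translation regulator needed for memory, at 0.71 ± 0.11.

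Of 5 measured transcription factors that respond to neuronal activity, the class of signal that induces Arc in mammals, 3 were higher on malnutrition: kay (0.68 ± 0.11, SE) and Jra (0.24 ± 0.05), the fly Fos and Jun, and sr (0.60 ± 0.10), an Egr factor, a dim probe set. On overfeeding kay (-0.35 ± 0.11) and sr (-0.47 ± 0.10) were lower and CrebB (0.49 ± 0.16) higher. None of the 5 was called between the lines over all diets and ages, where 20.2% of all probe sets were called in either direction. Of 18 neuropeptides, hormones and receptors of feeding 8 were higher and 4 lower on malnutrition, with the insulin receptor InR at 1.04 ± 0.09, sNPF, a peptide that promotes feeding, at 1.05 ± 0.13, and AkhR, the adipokinetic hormone receptor, at -1.63 ± 0.15. Of 18 genes of lipid storage and use 6 were higher and 9 lower, with Lsd-1, a coat protein of lipid droplets, at -1.58 ± 0.14 and the fatty acid synthase FASN1 at -1.48 ± 0.10. All these counts stand beside 18.2% of probe sets called higher and 13.5% called lower on malnutrition.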

How the data were processed

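Pools of whole virgin females were profiled on 46 arrays in 12 groups of line, diet and age, tied to their groups by the labels. The authors deposited log2 values from RMA, a method that subtracts background, gives all arrays 1 distribution and merges probes into probe sets (R 2.7.0 per the submitters' processing notes), and left out 2 arrays for quality. A shift shared by most genes is therefore already removed. No value was normalized again. The platform annotation gives 1 gene to 13646 probe sets, several to 402 and none here to 4904, and 13543 symbols were matched to RefSeq by gene ID.

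All 46 arrays entered a limma fit (version 3.58.1, R 4.3.3) with a mean for each of the 12 groups, and p-values were adjusted by Benjamini and Hochberg over all probe sets within each of 19 contrasts (two-sided, threshold 0.05). The steps were tested on simulated data. Correlations used permutations of arrays within groups (100000 resamples; Python 3.11.15, scipy 1.17.1). In gene lists the probe set with the highest mean stands for a gene.

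The members, the gene lists and the rule for named genes were chosen with earlier results of these data known. The rule takes all Arc probe sets, the 5 most and 3 least alike genes (mean of at least 5), 3 neighbours a side, and up to 4 called members per list. Alternatives were the groups of a contrast alone, a filter on dim probe sets, centring on the median or on the neuron list, eBayes with trend and robust, the germline list as covariate, a replicate block, and leaving out each array. The labels repeat replicate numbers between groups without saying that they mark a batch. Same-numbered arrays deviated together in every pair (r over 0.1) in 2 of 20 contrasts, the lines in old flies on overfeeding (0.118 to 0.192) and, in C flies kept on optimal food, the ages (0.344 to 0.401).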

Additional observations from a re-analysis of the deposited data

Results flagged for a closer look

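In 1 of the 30 combinations of probe set and group with 4 arrays, an array stood far from the rest: Arc1 (1639694_s_at) in middle-aged SR flies on malnutrition was at 10.03 in replicate 4, against 10.51, 10.53 and 10.56 in the others. Chance marks about 1 in 20 groups this way. The probe set 1639180_at had no such array there.

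The malnutrition difference of Arc1 (1639180_at) was smaller in SR flies than in C flies by an interaction of -1.15 on the log2 scale (limma, adjusted p = 7.59e-05). For the same probe set, SR minus C flies was -0.71 on malnutrition in old age, with every SR array below every C array, and had the opposite sign without overlap on optimal food in middle age (1.24) and on overfeeding in old age (0.89). The difference between -0.71 and either of these values was not tested, and the arrays also enter the age differences for which Arc1 was picked.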

How the results depend on the processing

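Of 396 tested values under other settings 371 kept their side of the threshold, 11 of them, not called, with the other sign, while 16 lost a call, 6 gained one and 3 called values reversed. Leaving out an array kept the side of the threshold for 810 of 834, 29 of them with the other sign, with 19 calls lost and 5 gained. The causes were not tested beyond what each construction shows. With only the groups of the contrast (fewer arrays), calls were lost for Arc1 SR minus C on malnutrition in old age (-0.71) and on overfeeding in middle age (0.57), Arc1 overfeeding in middle-aged SR (-0.68) and old C flies (-1.07), and Arc2 malnutrition in old C flies (0.85). Without dim probe sets (fewer tested) Arc2 gained a call for overfeeding in old C flies (-0.60). Centring on neuron markers ended the calls of Arc2 SR minus C in middle age on optimal food (0.22), in old age on overfeeding (0.63) and over all groups (0.19), of Arc1 SR minus C in middle age on overfeeding (0.36), of Arc1 overfeeding in middle-aged SR flies (-0.32), and on malnutrition of Arc1 in middle-aged SR flies (0.33), Arc2 in middle-aged C flies (0.24) and both over all groups (0.12 and 0.07). It called Arc1 lower in old SR flies (-1.06) and reversed Arc2 there (-0.35) and both genes in old C flies (-0.12 and -0.01). For 1639694_s_at it ended the calls over all groups on malnutrition (0.10) and between lines (0.39), and called old SR flies lower on malnutrition (-1.60). Age differences reversed with it in SR flies on malnutrition (-0.06 and -0.16 for the Arc1 probe sets, -0.11 for Arc2) and for Arc2 in C flies on overfeeding (-0.01), and moved in C flies for Arc1 on optimal food (2.05) and overfeeding (0.93) and for Arc2 on optimal food (0.76). With the germline covariate those on optimal food moved to 2.11 and 0.78, and Arc1 1639694_s_at in SR flies on malnutrition reversed (-0.04). The interaction of line and malnutrition for 1639694_s_at gained a call with this covariate (-1.18).

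Without single arrays, values ran from -0.80 to -0.55 for Arc1 SR minus C in old flies on malnutrition, 0.43 to 0.72 in middle-aged flies on overfeeding, -0.80 to -0.52 for overfeeding in middle-aged SR flies, 0.48 to 0.67 for Arc2 SR minus C in middle-aged flies on optimal food, 0.59 to 0.70 in old flies on overfeeding, -0.74 to -0.46 for overfeeding in old C flies, 0.51 to 0.87 for its age difference in C flies on malnutrition, and -0.01 to 0.24 for that of 1639694_s_at in SR flies. With the replicate number as a block 1 call changed, SR minus C of 1639694_s_at in middle-aged flies on optimal food (0.94, limma, adjusted p = 0.0376). Deviations of same-numbered arrays correlated there at r = -0.017 to 0.451, not in every pair over 0.1.

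Counts of called probe sets moved as well. Under neuron centring 18576 were called on malnutrition over all groups, against 5999, and 1.2% of these were higher, against 57.4%. On overfeeding over all groups 13484 were called, against 3088, with 95.7% higher, against 49.8% (68.2% with median centring). For SR minus C in middle-aged flies on optimal food 6129 were called, against 3165, with 8.7% higher, against 50.8% (38.4% with median centring). Overfeeding in middle-aged SR flies called 4 probe sets without replicate 1 on overfeeding and 846 without replicate 4, against 208. In the 4 classes on malnutrition 14626 to 18205 were called with neuron centring, against 2607 to 3314. The interaction of line and malnutrition called 81 with it and 558 with the germline covariate, against 162. With only the groups of the contrast 108 were called for SR minus C in old flies on malnutrition, against 681, 367 in old flies on optimal food, against 824, and 8, 9 and 30 for overfeeding in old C, old SR and middle-aged SR flies, against 165, 47 and 208. The block moved the count for overfeeding in old C flies to 247, against 165.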
